A study of Mus musculus with 2 samples.

Results

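Igfbpl1 and Prdm8 were followed in mouse glioblastoma together with 8 genes of neuronal differentiation, Insm1, Nhlh1, Neurod1, Dcx, Elavl3, Chgb, Sstr2 and Sox11. They are 10 of the 19059 genes on the probe set, and were picked by symbol with values of these same matrices in view. Their levels, their shared detection and their differences between treatments are therefore given as a description, without a test. The single-cell data came from tumors grown in the right striatum of female C57BL/6J mice, 6 to 8 weeks old, from mGSC, a single stem cell line of mouse glioblastoma with Trp53+/- and Nf1+/- alleles, so no second tumor genotype was examined. Both groups carried these cells and these alleles. One group received vehicle and the other Xevinapant, an oral antagonist of the inhibitor of apoptosis proteins, at 50 mg/kg daily for 7 days, and the design gives 4 tumors per group.

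During neurogenesis, Notch signalling holds neighbouring cells as progenitors, and cells that escape it switch on basic helix-loop-helix factors such as Neurod1 and Nhlh1. Insm1, a zinc finger repressor, and Sox11 act in progenitors and newborn neurons, while Dcx, a microtubule-binding protein, and Elavl3, an RNA-binding protein, mark migrating and young neurons. Glioblastoma cells often mix oligodendrocyte progenitor, astrocyte and neuronal progenitor programs in the same tumor.

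Each group has 4 matrices of unique molecular identifier (UMI) counts, 56943 barcodes and 1163463035 UMIs in all, with 4505 to 14728 barcodes a matrix. Matrices 1 and 3 of Vehicle, 1 and 2 of Xevinapant, and 3 and 4 of Xevinapant differed by only 1.11 to 1.85 times the sampling error of their cells, against 3.73 to 6.39 times for the other 9 pairs within a group. Each alike pair was summed, which left 5 samples, 3 Vehicle and 2 Xevinapant. The 16 pairs of matrices across groups differed by 3.32 to 7.04 times, which overlaps the range of those 9 pairs. No barcode was shared within a group, and 1413 were shared across groups, all of them in the 4 pairs of matrices with the same number (178 to 528 a pair). The droplet part of the barcode was shared by 7.13% to 22.1% of the smaller matrix within groups and by 0.799% to 7.85% across groups. The labels name a pool and a batch of its own for each group, so pool and batch cannot be told apart from the treatment. A tumor cell was a barcode with at least 2 UMIs on Olig1 and Olig2 or on 7 neuronal markers. The neuronal markers were Tubb3, Stmn2, Stmn3, Rbfox3, Syp, Elavl4 and Snap25. The larger of these sums also had to exceed that of any panel of immune, endothelial, mural or erythroid markers. This gave 36794 tumor cells, 6564, 5356 and 10433 in the Vehicle samples and 4705 and 9736 in the Xevinapant samples, with median depths of 13479 to 18541 UMIs. Between 93.5% and 98.4% of them in each matrix passed on Olig1 and Olig2, the oligodendrocyte lineage factors of this tumor. No panel for host neurons or host glia was used, so host cells with these markers could pass as tumor cells. Their part in the results was not tested.

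RefSeq promoter entries (GRCm38.p6) matched 8 of the 10 genes, and 4 of these 8 held CAGCTG or CAGATG in the 250 bases before the annotated start. Both are forms of the E-box, CANNTG, the kind of site that basic helix-loop-helix factors bind. The letters searched were CAGCTG, which is its own reverse complement, and CAGATG, which reads CATCTG on the other strand. At least 1 of them was present in 25.5% of all 32851 promoter entries, CAGCTG in 13.0% and CAGATG in 14.4%. The letters TCAGCACC or GGTGCTGA, the start of the element bound by the neuronal repressor REST, were in 1.32% of all entries. None of the 8 members with an entry held them. Igfbpl1 and Insm1 had no entry and were not searched. The 4 windows with CAGCTG or CAGATG are shown since these are the members with such letters near a start, with these letters in capitals. Other forms of the E-box were not searched or counted. They stand in lower case where a shown window holds them, and windows not shown can hold them too. A match in letters is not evidence of binding. The windows are chr1:172057597-172057846 on the minus strand for Nhlh1, chr5:98180619-98180868 on the plus strand for Prdm8, chr9:22052024-22052273 on the minus strand for Elavl3 and chr12:27342719-27342968 on the minus strand for Sox11. That of Prdm8 lies within the gene, outside the exons annotated in GENCODE, and the others lie outside their genes.
Nhlh1: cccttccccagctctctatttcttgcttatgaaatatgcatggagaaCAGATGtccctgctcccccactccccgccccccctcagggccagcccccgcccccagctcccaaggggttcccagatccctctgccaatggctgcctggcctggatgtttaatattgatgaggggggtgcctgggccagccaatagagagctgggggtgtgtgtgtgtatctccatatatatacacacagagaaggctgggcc
Prdm8: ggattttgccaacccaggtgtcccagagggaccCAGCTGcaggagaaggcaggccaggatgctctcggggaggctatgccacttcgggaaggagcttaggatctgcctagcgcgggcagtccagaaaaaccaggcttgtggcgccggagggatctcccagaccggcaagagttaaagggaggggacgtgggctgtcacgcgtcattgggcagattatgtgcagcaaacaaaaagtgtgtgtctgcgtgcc
Elavl3: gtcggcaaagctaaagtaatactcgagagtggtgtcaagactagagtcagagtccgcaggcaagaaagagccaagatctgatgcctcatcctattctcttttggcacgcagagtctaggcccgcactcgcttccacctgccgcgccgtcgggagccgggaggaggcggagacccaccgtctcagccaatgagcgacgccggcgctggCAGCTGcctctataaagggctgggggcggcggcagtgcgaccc
Sox11: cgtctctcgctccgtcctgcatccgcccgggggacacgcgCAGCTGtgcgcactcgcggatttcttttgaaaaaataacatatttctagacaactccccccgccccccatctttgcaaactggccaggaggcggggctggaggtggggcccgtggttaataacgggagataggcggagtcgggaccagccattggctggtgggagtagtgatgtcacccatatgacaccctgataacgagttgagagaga

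Igfbpl1 and Prdm8 were high in 1 of the 5 samples, Xevinapant 3 and 4. Igfbpl1, on chromosome 4 at 45809468 to 45826923, encodes a secreted protein related to the insulin-like growth factor binding proteins. Its level in tumor cells was 15.7, 13.0 and 5.51 CPM (UMIs on the gene scaled to a common total in every sample) in the Vehicle samples 1 and 3, 2, and 4. It was 11.9 in Xevinapant 1 and 2 and 73.4 in Xevinapant 3 and 4, 4.69 times the highest other sample. The first Xevinapant sample lay inside the Vehicle range and the second far above it. The means were 11.4 ± 5.26 (SD, n = 3) and 42.7 ± 43.5 (SD, n = 2), so the spread within the Xevinapant group exceeded the difference between the groups.

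Prdm8, on chromosome 5 at 98167198 to 98188991, encodes a transcriptional repressor of the PRDM family that acts in developing neurons. It stood at 0.99, 0.658 and 0.617 CPM in the Vehicle samples, at 0.88 in Xevinapant 1 and 2 and at 11.7 in Xevinapant 3 and 4. The last value was 11.8 times the highest other sample, and the other 4 samples lay within 0.617 to 0.99. Both matrices of that sample were high, with 12.3 and 11 for Prdm8 and 76.2 and 70.3 for Igfbpl1. Of all 14487 genes tested in tumor cells, 0.0552% were at least 4 times the next sample in Xevinapant 3 and 4. Both genes are in that group, which is how they stood out, and no more is read from it.

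Of the other transcription factors, Nhlh1 and Insm1 had the same order of samples as Igfbpl1, and Neurod1 and Sox11 did not. Nhlh1 had 17.4, 13.6 and 4.69 CPM in the Vehicle samples and 8.81 and 29.1 in the Xevinapant samples. Insm1 had 60.3, 57.5 and 30.9 against 32.4 and 73.3. For both, Vehicle 4 was lowest, Xevinapant 3 and 4 highest, and the groups overlapped. Neurod1 had 78.9, 78.6 and 74.9 against 45.9 and 121, so the Xevinapant samples lay on both sides of the Vehicle samples. Sox11 was even across the 5 samples, at 272, 297 and 228 against 223 and 242.

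Among the cytoskeletal, RNA-binding and secretory genes, Elavl3 was the member whose groups did not overlap, with 34.5, 27.3 and 23.6 CPM in Vehicle and 41.1 and 48.3 in Xevinapant. Groups without overlap were found for 27.3% of all genes tested, so 1 of 10 members is no more than the background. Dcx had 68.0, 51.3 and 40.7 against 36.2 and 52.7. Chgb, a granin of secretory granules, had 37.4, 22.7 and 5.92 against 20.8 and 39.0. Sstr2, a somatostatin receptor, had 20.001, 23.7 and 4.58 against 13.2 and 36.1. Vehicle 4 was the lowest sample for Igfbpl1, Prdm8, Insm1, Nhlh1, Elavl3, Chgb and Sstr2. The share of all genes lowest in Vehicle 4 was not counted, so nothing is read from these members. Xevinapant 3 and 4 was the highest for 8 of the 10 members, all but Dcx and Sox11, where 20.6% of all genes were highest in that sample. Levels in immune barcodes (at least 10 UMIs on immune markers) were 9.85% to 159% of those in tumor cells for Chgb. For Nhlh1, Insm1 and Sstr2 they were 7.22% to 72.0%, 27.4% to 70.2% and 18.5% to 68.4%. For Dcx and Elavl3 they were 32.8% to 60.6% and 24.1% to 58.9%. In Vehicle 2 immune barcodes had 36.1 CPM of Chgb, with 36 of its 101 UMIs in 1 barcode. This background was not subtracted, and its part in the levels was not tested.

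**Figure D1:**
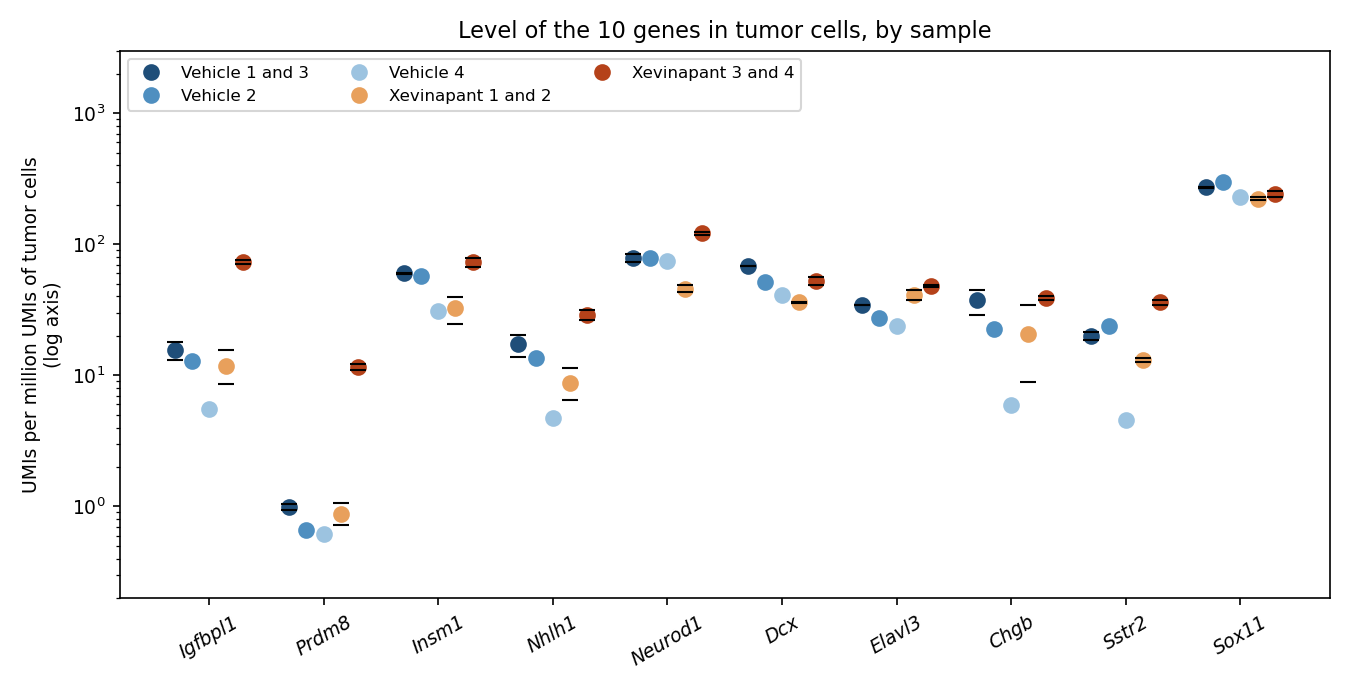
Level of each gene in tumor cells of the 5 samples, in CPM on a log axis. Large points are samples, and short bars are the 2 matrices of a joined sample. Igfbpl1 and Prdm8 reach 73.4 and 11.7 in Xevinapant 3 and 4, and lie at or under 15.7 and 0.99 in the other 4 samples.

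In the edgeR fit of Xevinapant against Vehicle over all genes, 0 of the 10 members passed an adjusted p of 0.05, where 0% of 14487 genes did. The edgeR fit with each matrix as 1 mouse called 0 members and 2.63% of all genes. Unadjusted, 3 members were under a p of 0.05 where 9.35% of all genes were. These were Elavl3 at a log2 fold change of 0.61 ± 0.18 (SE), Prdm8 at 3.0 ± 0.88 and Igfbpl1 at 1.85 ± 0.70. Their adjusted p was 0.515 each, the lowest of any gene. DESeq2 called 1.39% of 12796 genes and 1 member, Prdm8, at an adjusted p of 0.0371. Since the members were chosen on this contrast, these values describe them and test nothing. Without Xevinapant 3 and 4 the log2 fold change was 0.04 ± 0.56 (SE) for Igfbpl1 and 0.20 ± 0.50 for Prdm8, with the 1 remaining Xevinapant sample assumed to vary like the Vehicle samples. The number of members above 0 then fell from 8 to 3, and their median from 0.48 to -0.29, while the median of all genes went from 0.01 to -0.01.

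The surplus of Igfbpl1 in Xevinapant 3 and 4 lay in a few cells with many UMIs. There, 113 of 9736 tumor cells (1.16%) held at least 50 Igfbpl1 UMIs, and they carried 70.2% of all its UMIs in the sample. In the other samples 2, 3, 0 and 3 cells reached that number. The highest single cell held 444 UMIs there and 45 to 151 in the other samples. Cells with at least 1 UMI were 11.2% there and 3.74% to 7.68% elsewhere, a smaller contrast than that of the cells with many UMIs.

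Prdm8 differed in breadth as well as in height. At least 1 UMI was found in 10.5% of tumor cells of Xevinapant 3 and 4 and in 0.84% to 1.28% of those of the other samples. At least 5 UMIs were found in 118 cells there and in 3, 1, 0 and 4 cells of the others, and the most in a cell was 48 against 3 to 16. Of 1308 immune barcodes of that sample 36 held a Prdm8 UMI, 90 UMIs in all, of which 39 were in 1 barcode of matrix 4. The level was 3.27 CPM in immune barcodes of matrix 3 and 9.03 in those of matrix 4, against 0 to 0.268 CPM in immune barcodes of the other samples.

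**Figure D2:**
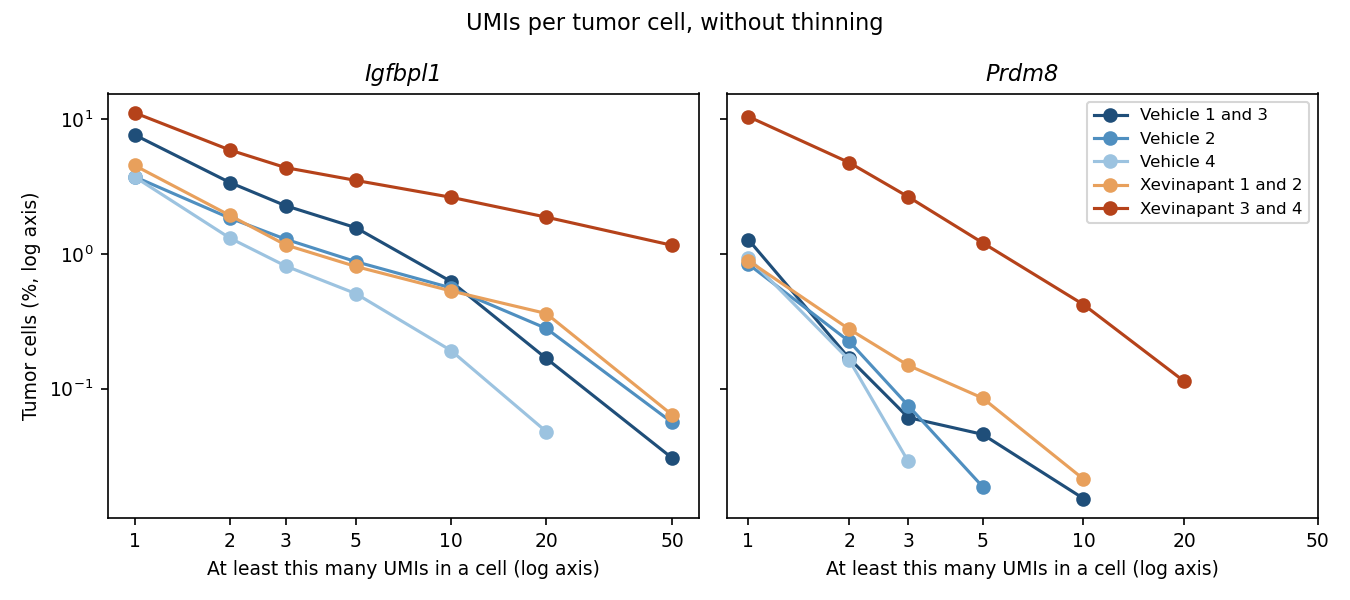
Share of tumor cells with at least a given number of UMIs on Igfbpl1 (left) and Prdm8 (right), both axes logarithmic, 1 line per sample. Numbers reached by no cell are not drawn. Xevinapant 3 and 4 is the uppermost line in both panels, with 1.16% of cells at 50 or more Igfbpl1 UMIs.

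To compare detection at equal depth, each tumor cell was thinned to 5000 UMIs, which kept 30661 cells and left out 6133 shallower ones. Igfbpl1 was then found in 3.94%, 2.15% and 1.65% of the Vehicle tumor cells and in 2.25% and 5.88% of the Xevinapant tumor cells. Prdm8 was found in 0.372%, 0.294%, 0.457%, 0.315% and 3.75%, in the same order. Immune barcodes, which should lack both genes, had median depths of 4450 to 5288 UMIs before thinning. Igfbpl1 was found in 0.291% to 3.23% of them and Prdm8 in 0% to 1.03%, each highest in Xevinapant 3 and 4. In every sample the share in tumor cells was above that in immune barcodes, narrowly for Igfbpl1 in Vehicle 2, at 2.15% against 2.05%, 3 of 146 barcodes. Sox11 was detected in 54.1% to 66.3% of tumor cells and Neurod1 in 15.99% to 31.2%. Sox11 was in 12.1% to 32.2% of immune barcodes and Neurod1 in 2.86% to 13.7%.

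Shared detection is described for the members alone, and other gene pairs were not counted. Of the 45 pairs, 40 were detected together more often than independent detection would give in all 5 samples, the other 5 all held Prdm8 and did so in 4 of 5 samples, and the median over pairs was 2.67 times. Igfbpl1 and Nhlh1 led, at 15.4 ± 7.03 times (SD, n = 5), with 459 cells holding both where 41.1 would hold both if independent. Nhlh1 with Chgb stood at 13.5 ± 6.30 and Igfbpl1 with Chgb at 10.3 ± 2.77. Elavl3 with Sox11 had the lowest value, 1.09 ± 0.05. Depth was equal in the cells compared, and the pairs share cells and libraries, so no p is given.

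Igfbpl1 and Prdm8 shared 124 cells, of which 114 were in Xevinapant 3 and 4. Of the cells with Prdm8 in that sample, 36.7% also held Igfbpl1, and of the cells with Igfbpl1, 23.4% held Prdm8. The ratio to independence was 2.53, 0, 3.04, 22.2 and 6.23 in the 5 samples, where the first 4 rest on 2, 0, 2 and 6 cells.

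The count of members in a cell showed a long tail. Sox11 was left out of this count because it is widely expressed in progenitors. At least 5 of the 9 other members were detected in 743 tumor cells, 2.66%, 2.33% and 0.652% of the Vehicle and 1.34% and 4.69% of the Xevinapant tumor cells. Independent detection would give 0.0409%, 0.0264%, 0.00398%, 0.00498% and 0.0834%. All 9 were found in 1 cell of Vehicle 4, 1 of Xevinapant 1 and 2, and 24 of Xevinapant 3 and 4. The 9 include Igfbpl1 and Prdm8, which stood out in that last sample. The contrast between samples in these counts partly follows from the choice of members. At the other end, 47.5% to 58.1% of tumor cells held none of the 9.

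**Figure D3:**
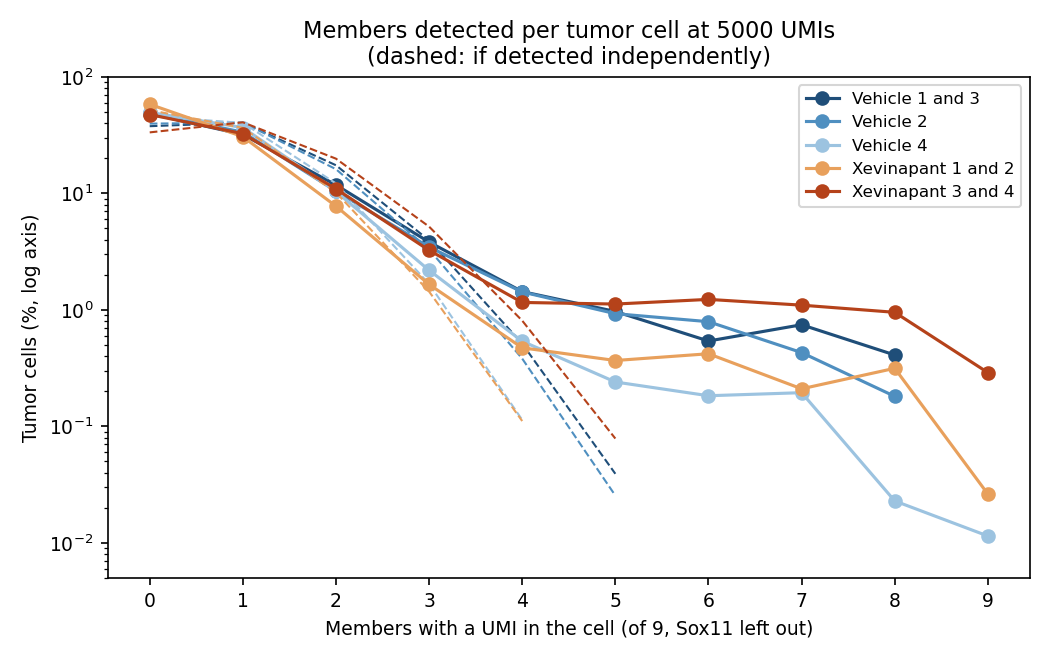
Tumor cells by the number of the 9 members detected, thinned to 5000 UMIs, in percent on a log axis. Points and full lines are the 5 samples, and dashed lines are what independent detection would give. From 4 to 8 members, each full line that is drawn lies above its dashed line, and at 9 members no cell was found in 2 samples.

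Averaged over the samples, each gene was detected in a larger share of cells with at least 5 other members than of cells with none, and all but Prdm8 were so in each of the 5 samples. Nhlh1 went from 0.549% of cells with none of the others to 76.9% ± 5.0 (SD, n = 5) of cells with at least 5. Igfbpl1 went from 1.07% to 59.9% ± 16.04, Insm1 from 5.41% to 87.5% ± 4.18, Dcx from 11.7% to 86.3% ± 5.28 and Chgb from 1.38% to 53.5% ± 5.89. Neurod1 went from 23.0% to 78.2% ± 6.58, and Sox11 went from 55.2% to 93.0% ± 4.13. Prdm8 went from 0.439% to 9.49% ± 13.0, with 31.7% of 379 cells in Xevinapant 3 and 4 and 10.2% of 49 cells in Xevinapant 1 and 2. In the Vehicle samples 1 and 3, 2, and 4 it was in 2.10% of 143, 0 of 103 and 3.51% of 57 cells.

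**Figure D4:**
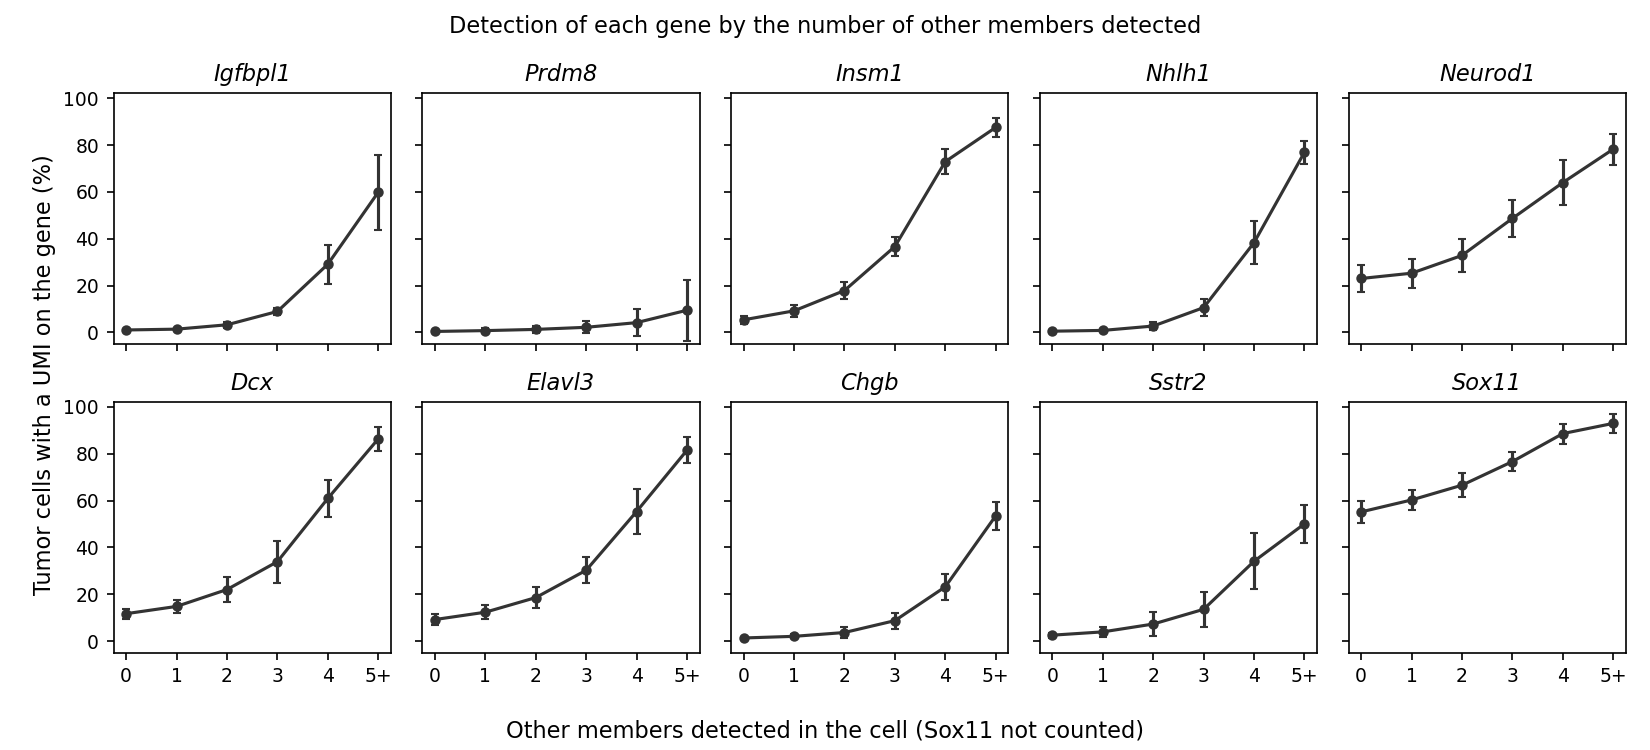
Share of tumor cells with a UMI on each gene (percent) by the number of other members detected in the cell, as the mean of 5 samples with SD bars. The 10 panels share axes. Nhlh1 and Igfbpl1 are in 2.75% and 3.28% of cells with 2 other members and reach 76.9% and 59.9% at 5 or more, and Sox11 starts at 55.2%.

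Tumor cells with at least 3 of the 9 members are called the neuronal set here. It held 1925 of 30661 cells, 7.91% (95% exact binomial interval 7.20 to 8.66), 7.21% (6.46 to 8.01) and 3.37% (3.004 to 3.77) in Vehicle and 3.46% (2.90 to 4.09) and 9.08% (8.47 to 9.72) in Xevinapant. Such intervals cover counting error only. The group means were 6.16% ± 2.44 (SD, n = 3) and 6.27% ± 3.98 (SD, n = 2), a difference of 0.11 percentage points that lies within the spread of either group. Vehicle 4 and Xevinapant 1 and 2 had the small shares, and the other 3 samples the large ones. Igfbpl1 and Prdm8, which stood out in Xevinapant 3 and 4, count toward the share of that sample. Independent detection alone would give shares of 4.49%, 3.71%, 1.79%, 1.55% and 6.07%, below the observed share in each sample. Cells with exactly 3 members were 3.81%, 3.46%, 2.18%, 1.65% and 3.24% of tumor cells, against 3.94%, 3.30%, 1.67%, 1.43% and 5.18% if independent. They made up 48.2%, 48.0% and 64.7% of the set in Vehicle and 47.7% and 35.7% in Xevinapant, so much of the set lies near what independent detection gives. Cells with 5 or more members made up 33.6%, 32.3% and 19.3% of the set in Vehicle and 38.6% and 51.6% in Xevinapant. Among immune barcodes 2.55%, 4.79%, 0.872%, 0.952% and 2.94% held 3 or more members.

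The share of each member's UMIs that lay in the set is a description, since these members chose its cells. The set carried 84.9% to 94.8% of all Nhlh1 UMIs, 78.6% to 91.5% of Chgb, 65.8% to 95.5% of Igfbpl1, 45.8% to 79.7% of Insm1 and 7.69% to 25.7% of Sox11. For Prdm8 the shares were 25.0%, 33.3% and 40.5% in Vehicle and 82.4% and 68.7% in Xevinapant. The level of Igfbpl1 within it was 161, 205 and 107 CPM in Vehicle and 352 and 811 in Xevinapant, and outside it 1.51 to 3.79. Insm1 had 460, 485 and 441 in Vehicle and 630 and 642 in Xevinapant. Sstr2 had 162, 195 and 69.8 against 183 and 346, Dcx had 345, 380 and 278 against 315 and 406, and Sox11 had 795, 757 and 508 against 929 and 684. The share of all genes whose groups did not overlap within the set was not counted, and the members other than Sox11 chose its cells, so nothing is read from which of them overlapped. Prdm8 had 2.35, 3.13 and 11.5 CPM in the set in Vehicle and 21.2 and 85.1 in Xevinapant, on 5, 5, 17, 14 and 321 UMIs. Outside the set Prdm8 had 0.163 to 0.606 in 4 samples and 3.87 in Xevinapant 3 and 4. By matrix it was 4.13 and 3.62 outside the set, beside 3.27 and 9.03 in unthinned immune barcodes, the latter mostly from a single barcode. At equal depth Prdm8 was detected in 1.71% of that sample's tumor cells outside the set and in 1.03% (95% exact binomial interval 0.414 to 2.11) of its immune barcodes, a difference not detectable at this depth. Cells of the set did not have deeper libraries throughout, with medians of 15122 to 22706 UMIs against 16423 to 22027 in other tumor cells.

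Genes beside the members were then compared between the neuronal set and the other tumor cells of the same samples, in an edgeR fit with the sample as a block. The set was picked by shared detection of neuronal genes, so higher levels of other neuronal genes partly follow from that choice. The fit and the counts by list describe the set and are not separate support for its neuronal character. Of 12978 genes tested beside the members 37.2% passed, 2263 (17.4%) higher in the set and 2561 (19.7%) lower, and the median log2 fold change was -0.02. Xkr7 and Sez6l2 led the genes with a mean log2 CPM of at least 5 that moved 1 way in all 5 samples, the rule by which these 12 and the 6 lowest are named. Xkr7, of the XK-related membrane protein family, stood at 129.8 ± 43.9 CPM in the set and 1.81 ± 1.18 outside it (SD, n = 5 each), a log2 fold change of 6.19 ± 0.19 (SE). Sez6l2, a neuronal membrane protein, stood at 137 ± 33.0 and 2.96 ± 1.23. Celsr3, a cadherin of axon guidance, Ebf3, a transcription factor of young neurons, and Robo1, a Slit receptor, had log2 fold changes of 3.40, 3.25 and 2.56. Chga, the granin related to Chgb, was at 2.62 and Crmp1, a mediator of axon guidance, at 2.58. Afap1, Clmp, Nxph4, Akap6 and Sez6 completed these 12, at 3.02, 2.98, 2.78, 2.70 and 2.53.

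The 6 lowest genes by this rule were Cnmd and Matn1, known from cartilage matrix, Mlc1, Agt and Aqp4, known from astrocytes, and the collagen gene Col6a2. Their log2 fold changes were -2.63, -2.53, -2.52, -2.39, -2.17 and -2.21, in that order. Aqp4, the astrocyte water channel, stood at 10.1 ± 4.50 CPM in the set and 43.7 ± 26.3 outside it (SD, n = 5 each).

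Proneural and Notch genes moved both ways, with 10 of 16 higher, 3 lower and 3 not past the threshold, and a median log2 fold change of 0.76. The Notch ligand Dll4, at 5.08, the corepressor Cbfa2t3, at 4.34, and the proneural factor Neurog1, at 3.58, were the highest. The Notch effectors Hes5, at -0.96, and Hes1, at -0.88, and the receptor Notch2, at -0.56, were the ones that were lower. Among transcription factors of young neurons 19 of 20 tested were higher, with a median of 2.88. Scrt2, a neuronal repressor, rose by a log2 fold change of 6.69 ± 0.33 (SE), and Neurod2 by 7.51 ± 0.31. Nhlh2, close kin of Nhlh1, had 2.54 ± 2.04 CPM in the set and 0.0153 ± 0.0234 outside it (SD, n = 5), too few UMIs for the fold to be more than approximate. Pou4f1 and Onecut2 were at 0.88 each, and Zfhx3, at 0.00, was the 1 that did not pass.

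Cytoskeleton and RNA-binding genes of young neurons were higher in 19 of 21, with a median of 1.45. Srrm4, a neuronal splicing factor, at 4.20, Celf3, an RNA-binding protein, at 3.41 and Celsr3 at 3.40 led, and Gap43, a growth cone protein, at 0.71, Rnd2, at 0.45, and Tubb2b, at 0.05 and not past the threshold, came last. Granule and peptide genes were higher in 11 of 14, with a median of 1.23. Sstr3 had a log2 fold change of 4.84 and Scg2, a granin, of 3.06. The peptide gene Sst stood at 2.77 ± 4.25 CPM in the set (SD, n = 5) and was higher in 3 of 5 samples, though past the threshold. Cpe, at 0.14, Npy, at -0.20, and Sstr1, at -0.56, did not pass.

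Interneuron precursor genes were higher in 8 of 9 tested, with a median of 1.63. Sp8, at 4.16, and Dlx1, at 2.82, were among the highest, Dlx5 and Dlx6 were at 1.33 and 0.86, and Lhx6, at 0.95, did not pass. Gad1 but not Gad2 was measured among the GABA-synthesizing enzymes, as Gad2 had no UMI in either class after thinning. Mature neuron genes were higher in 9 of 13 tested and lower in 2, with a median of 1.84. Snap25, of the synaptic fusion machinery, stood at 94.8 ± 32.7 CPM in the set and 3.98 ± 1.41 outside it (SD, n = 5). It is a marker of the tumor cell gate, so its level in the set partly follows from the gate. Slc17a6 and Slc32a1, the vesicular transporters of glutamate and GABA, were at 5.14 ± 4.22 and 1.76 ± 1.67 CPM in the set (SD, n = 5). Beside the 9 that were higher, other genes of this list were at or near 0, or lower, in the set. Nefm and Grin2a had no UMI, Nefl had 0.0531 CPM, and Camk2a and Ppp1r1b were lower in the set, at log2 fold changes of -1.45 and -2.11, while Thy1, at 0.80, did not pass. Without Xevinapant 3 and 4, Camk2a stood at -0.998 and no longer passed.

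Glial and progenitor genes were lower in the set. All 12 oligodendrocyte progenitor genes were lower, with a median of -0.89, from Bmp4 at -1.96, Gpr17 at -1.62 and Neu4 at -1.55 to Olig2 at -0.72, Ptprz1 at -0.67 and Nkx2-2 at -0.61. Of 12 astrocyte genes 10 were lower, with a median of -1.31. Besides Mlc1 and Aqp4, Gfap was at -1.95, Id4 at -0.71 and Sox9 at -0.50, while the glutamate transporter Slc1a2 was higher, at 1.66. Of 10 stem and progenitor genes 8 were lower, with Id3 at -2.15, Fabp7 at -1.08, Hmga2 at -0.94 and Sox2 at -0.51. Sox1, at 0.90, was higher and Prom1, at 0.36, did not pass but did so at 0.55 without Vehicle 4.

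Cell cycle genes were lower in 11 of 15 and higher in 0, but by little, with a median of -0.32. Ccne2, at -0.61, Mcm6, at -0.50, and Mcm5, at -0.45, were the lowest, and Aurka, Plk1 and Ccne1, at -0.09, -0.07 and -0.06, did not pass. Of 6 cell cycle inhibitors Btg1, at 0.54, and Cdkn1b, at 0.22, were higher, Cdkn1a, at -0.74, and Cdkn2c, at -0.45, were lower, and Cdkn1c, at 0.17, and Cdkn2d, at 0.07, did not pass. Cdkn1b, at 0.20 without Vehicle 1 and 3, then missed the threshold, and Cdkn1c, at 0.45 without Xevinapant 3 and 4, passed it.

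**Figure D5:**
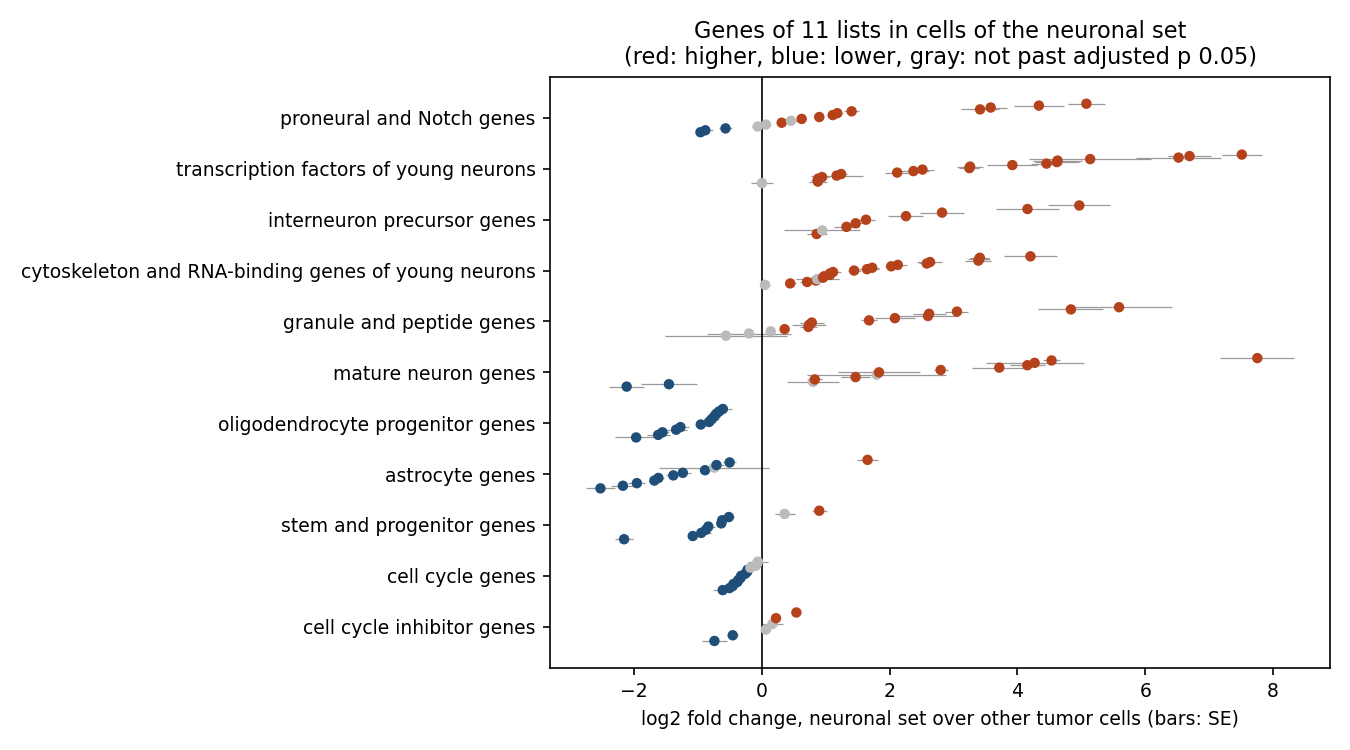
log2 fold change of each listed gene in the neuronal set over other tumor cells, with SE bars, by list. Red points are higher and blue points lower at an adjusted p of 0.05, and gray points did not pass. Transcription factors of young neurons are higher in 19 of 20, and oligodendrocyte progenitor genes lower in 12 of 12. Cells of the set were picked by neuronal members, so the directions partly follow from that choice.

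The gate on tumor cells itself used Olig1, Olig2 and 7 neuronal markers, 4 of them in the cytoskeleton list and 3 in the mature neuron list. Without these, 16 of 18 cytoskeleton genes were higher, with a median of 1.09, 6 of 10 mature neuron genes were higher and 2 lower, with a median of 1.63, and 10 of 10 oligodendrocyte progenitor genes were lower, with a median of -1.11. Cells of the set passed on Olig1 and Olig2 in 68.3% to 90.2% of cases, and other tumor cells in 96.9% to 99.2%. Any host neurons or interneuron precursors in the set were not told apart from tumor cells. In tumor cells with Olig1 and Olig2 UMIs alone, an alternative chosen after seeing the data, the medians of the lists had the same signs. Cell cycle genes were then lower in 8 of 15 in place of 11, with a median of -0.20. Transcription factors of young neurons were then higher in 18 of 19, with a median of 2.03 in place of 2.88. Interneuron precursor genes were higher in 7 of 9, with 1.21 in place of 1.63. Mature neuron genes were higher in 8 of 12 and lower in 2, with 1.90 in place of 1.84, and proneural and Notch genes had 0.81 in place of 0.76. Oligodendrocyte progenitor genes were lower in 12 of 12, with -0.63 in place of -0.89, and astrocyte genes in 10 of 12, with -1.13 in place of -1.31. Marker panels of other cell types overlapped in summed level between the classes. The 14 immune markers summed to 46.4 to 104.5 CPM in the set and 48.8 to 118 outside it, and the 7 endothelial markers to 8.78 to 19.0 and 14.7 to 27.1. The immune sum was higher in the set in 2 of 5 samples and the endothelial sum in 1, and their part in the results was not tested.

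The mean expression along each chromosome, relative to immune barcodes of the same sample, is given for both classes of tumor cells. Chromosome 4 stood at -0.37 ± 0.11 (SD, n = 5, log2) in the set and -0.33 ± 0.05 in other tumor cells, and chromosome 19 at -0.39 ± 0.10 and -0.30 ± 0.07. Chromosome 16 stood at -0.31 ± 0.09 and -0.25 ± 0.05. The widest gap between the means of the classes was at chromosome 2, with 0.15 ± 0.05 against -0.01 ± 0.06. In Xevinapant 3 and 4 chromosome 19 stood at -0.49 in the set and -0.27 in other tumor cells. These values used 8630 genes, without the members and the listed genes, and expression alone does not give copy number.

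Among the genes beside the members that were most like Igfbpl1 across tumor cells, by the mean over 5 samples of the Pearson correlation of thinned log counts over 10532 genes, were Clmp and Chrnb2 at 0.30 each, Afap1 at 0.30 and Celsr3 at 0.29. Nhlh1, at 0.53, and Chgb, at 0.44, were the closest members, and Prdm8 was at 0.14 on average, from -0.01 to 0.41 over the samples. For Prdm8 the closest member was Nhlh1 at 0.16, and among the closest other genes were St8sia2 and Mdga1 at 0.09 each, Crmp1 at 0.09 and Celsr3 at 0.09, weak values in sparse counts. Cells share library and depth here, so these are descriptions without a p.

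Within the neuronal set, Xevinapant and Vehicle were compared for the genes beside the members. No gene of 12020 passed in edgeR, 0%, against 9.33% at an unadjusted p of 0.05, and DESeq2 called 0.645% of 10387. Members, all but Sox11 of which chose the cells, had log2 fold changes within the set of 1.92 ± 0.37 (SE) for Igfbpl1, 3.45 ± 0.53 for Prdm8, 1.11 ± 0.37 for Sstr2, 0.80 ± 0.36 for Chgb, 0.73 ± 0.20 for Nhlh1, 0.72 ± 0.13 for Elavl3, 0.67 ± 0.20 for Neurod1, 0.58 ± 0.14 for Insm1, 0.19 ± 0.22 for Sox11 and 0.16 ± 0.16 for Dcx. Without Xevinapant 3 and 4 they were 1.05 for Igfbpl1 and 1.97 for Prdm8, and without Xevinapant 1 and 2 they were 2.45 and 4.12. Of the lists, 8 of 19 transcription factors of young neurons were under an unadjusted p of 0.05 and 0 passed, with a median of 0.52. Proneural and Notch genes had 7 of 16 and a median of 0.29, astrocyte genes 5 of 11 and a median of 0.57, with 10 of 11 above 0, and cell cycle genes 5 of 15 and a median of -0.29, where the median of all genes was -0.01. Cytoskeleton and RNA-binding genes had 4 of 21 and a median of 0.18, and granule and peptide genes 3 of 13 and a median of -0.12. Interneuron precursor and mature neuron genes had 0 of 8 and 0 of 11, with medians of 0.34 and 0.20. Oligodendrocyte progenitor genes had 2 of 12, stem and progenitor genes 2 of 10 and cell cycle inhibitors 0 of 6, with medians of -0.11, 0.02 and -0.31. The share of set cells with 5 or more members moved with these values, at 19.3% to 33.6% in Vehicle and 38.6% to 51.6% in Xevinapant, and its part in them was not tested.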

How the data were processed

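UMI counts of cells from mouse tumors were analysed. The authors deposited unnormalized UMI counts per gene and barcode, mapped to mm10. The matrix headers name Cell Ranger 7.1.0 and the labels version 3.0. The assay reads RNA through gene probes in fixed cells, so values of different genes also reflect their probes. The labels name total RNA for one group and polyA RNA for the other. Matrices of the Xevinapant sample are named Vehicle, and the grouping follows the labels. The members, lists, set and samples were chosen with earlier results of these data known.

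Barcodes with fewer than 200 genes, a mitochondrial share above 10% or a complexity below 0.8 (the log10 number of genes divided by that of UMIs) were dropped. Scrublet of scanpy 1.11.5 made 0 calls of its own in 7 matrices and 2166 in Vehicle 4, so barcodes were removed from the top of the score at a rate that grew with the size of the matrix, 3612 in all. Immune barcodes had at least 10 UMIs on immune markers. Shares were taken after thinning each cell to 5000 UMIs, with seed 1. Genes were tested on UMI counts summed per sample by edgeR 4.0.16 with TMM, filterByExpr and the quasi-likelihood test, Benjamini-Hochberg adjusted at 0.05 over all genes tested, with DESeq2 1.42.0 as an alternative. The scripts were tested on simulated data. p-values measure the spread between these samples, whose tie to single mice the labels do not give. Genes are named if they are members, among the 3 highest or 3 lowest of a list, or among the 12 highest and 6 lowest called genes whose mean log2 CPM reached 5, if they moved 1 way in 5 of 5 samples. Celf4, Gng3 and Ccnb1 of the lists were not analysed here, and a few genes that the rule names are not reported here. Software ran under Python 3.11.15 and R 4.3.3.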

Additional observations from a re-analysis of the deposited data

How the results depend on the processing

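Treatment called no gene in tumor cells with edgeR under each sample left out, but 178 with DESeq2 (81 higher, 97 lower) and 369 with each matrix as 1 mouse (131 higher, 238 lower). With the matrix number as a replicate block on that fit, 0 genes passed, and the labels do not tie a number to a mouse. Within the neuronal set the count went from 0 to 67 with DESeq2 (37 higher, 30 lower), 172 with each matrix as 1 mouse (95 and 77), 316 without a low-count filter (186 and 130), 2 without doublet removal (2 higher) and 0 to 1 over samples left out, the 1 gene without Vehicle 4. For the set against other tumor cells, 2533 genes passed without a replicate block (1306 higher, 1227 lower).

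Members near 0 in the treatment fit changed sign. Insm1 (0.04) was at -0.23 with Olig1 and Olig2 cells only, -0.028 with each matrix as 1 mouse and -0.11 with the replicate block, and Neurod1 (0.05) at -0.045 with Olig1 and Olig2 cells only and -0.087 with the block. Leaving out a sample gave -0.64 to 0.50 for Insm1, -0.78 to 0.58 for Neurod1, -0.45 to 1.23 for Nhlh1, -0.10 to 1.0 for Chgb and -0.31 to 1.10 for Sstr2, lowest without Xevinapant 3 and 4 each time. In the set against other tumor cells, genes that did not pass changed sign. Zfhx3 was at -0.11 and -0.29 with at least 2 and 4 members, -0.00064 with each matrix as 1 mouse, -0.0023 without doublet removal, -0.011 without the low-count filter, -0.023 without the replicate block, -0.064 with Olig1 and Olig2 cells only and -0.071 to 0.074 over samples left out. Npy was at 0.11 with at least 4 members, 0.35 thinned to 3000 UMIs and -1.28 to 0.13 over samples left out. Plk1 was at 0.054 and Aurka at 0.014 with at least 2 members, and Plk1 at 0.026 with Olig1 and Olig2 cells only. Cdkn1c was at -0.10 with at least 4 members and -0.084 thinned to 3000 UMIs, and Ccne1 at -0.20 to 0.058 over samples left out.

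The share of the set moved with depth and with its definition, to means of 3.69% in Vehicle thinned to 3000 UMIs, 21.0% and 21.5% in Vehicle and Xevinapant without thinning, 17.0% and 15.6% with at least 2 members, 3.01% and 3.83% with at least 4, and 13.6% and 12.1% with Sox11 counted. Xevinapant minus Vehicle was -1.42 percentage points with at least 2 members and 0.815 with at least 4. That difference ran from -2.70 to 2.92 percentage points over samples left out. The median co-detection ratio was 3.42 thinned to 3000 UMIs and 2.41 to 2.78 over samples left out. The causes were not tested. With 5 samples, 3 against 2, changes of treatment that are small beside the spread between samples could not be seen.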

Other observations

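In Xevinapant 3 and 4, some Prdm8 cells lay outside the neuronal program. Of 168 and 143 tumor cells with a Prdm8 UMI in matrices 3 and 4, 68 and 61 held fewer than 2 other members. These cells and the genes given for them were singled out after their values were seen, in matrices that count as 1 sample, so no test was made. Immune barcodes of matrices 3 and 4 stood at 3.27 and 9.03 CPM for Prdm8, where 39 of the 64 UMIs in matrix 4 were in 1 barcode, and the part of such background in these cells was not tested. Sox10, a factor of the oligodendrocyte lineage, stood at 47.1 and 26.2 CPM in them, against 363 and 410 in Prdm8-negative cells with as few members. Olig2 was close in both, at 641 and 807 against 711 and 694. Tubb3, a tubulin of neurons and a marker of the tumor cell gate, stood at 235 and 311 against 122 and 118. Mki67, a marker of cycling cells, was at 694 and 685 against 575 and 514.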
